A study of Homo sapiens with 16 samples.

Results

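HIF1A, ETS1, BIRC2 and ROCK1 are 4 human genes with roles in cell survival and in tumour growth, and their ribosome footprints were followed here across 4 cancer cell lines and 2 doses of rocaglamide A (RocA). They are 4 of 9345 genes that could be named in the deposited tables, of which 5773 were tested with RocA and 7020 without it. The tables list transcripts with the number of codons counted for each, and a gene was named where the coding lengths of neighbouring entries fitted its GENCODE transcripts, each less 10 codons. For each gene the entry with the highest count over the 16 libraries was used. The genes were chosen with values of these libraries in view, so their levels with RocA against DMSO are a description and carry no test. Tests of a difference in response between lines use the same treated libraries. Their p-values are read as a description too, although the choice rested on the mean over lines, not on differences between them.

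Ribosome profiling sequences the stretches of mRNA that ribosomes shield from RNase, so the count on a gene follows the number of ribosomes on its message. The cells were the established lines NCI-H1650 and NCI-H520, from lung cancers, and Hs 936.T and A375, from melanomas, all of wild-type genetic background per the labels. Each line received the solvent DMSO (2 libraries) or RocA at 0.3 µM or at 3 µM (1 library each), in every case for 30 min. A dose within a line therefore has no replicate, and the 4 lines stand in for replicates. The SE of a change with RocA comes from a fit that also holds the DMSO replicates, and it is not the spread between lines. Over the 4 lines, the SD of the log2 change at 0.3 µM was 0.73 for HIF1A, 0.62 for ETS1, 0.85 for BIRC2 and 1.58 for ROCK1. At 3 µM it was 0.81, 0.75, 1.42 and 1.01 in that order. These line-by-line changes come from log2 counts scaled to library size with a prior count of 2, which draws changes on few counts towards none. For BIRC2 in NCI-H520 at 3 µM, with 0 counts, the value of -3.59 depends on that prior. The percentages and intervals by line carry no prior. Nothing in the labels says that the DMSO replicates came from separate cultures, so p-values measure the spread between these samples, which may be technical. Both doses share the same DMSO libraries. Of the NCI-H520 libraries, DMSO replicate 2 and 3 µM carry a cell-line label reading NCI-H521 and were grouped by their titles. RNA-seq was not used here, so fewer ribosomes per mRNA cannot be told apart from less mRNA, nor fewer cells from less RNA per cell, and each change is set against the remaining genes of its library.

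The total over named genes was 536546 to 3029023 counts in the DMSO libraries and 47736 to 571856 with RocA, lowest in NCI-H1650 at 3 µM. Epithelial genes (CDH1, KRT8 and CLDN7) summed to 11140 and 12050 CPM (counts scaled to library size) in NCI-H1650 with DMSO, to 2402 and 2395 in NCI-H520 and to at most 18.1 in the melanoma lines. The alveolar genes NKX2-1, SFTPB and SFTPC were at 0 in both NCI-H1650 DMSO libraries and summed to 3.46 and 11.7 CPM in those of NCI-H520. The squamous genes TP63 and KRT5 summed to 0 and 1.46 CPM in NCI-H520 with DMSO and to 19.9 and 25.1 in NCI-H1650. Melanocyte genes (PMEL, DCT, MITF, SLC45A2, GPR143 and OCA2) summed to 31660 and 32340 CPM in Hs 936.T but to 52.7 and 40.3 in A375. The same 6 genes summed to 934 and 2356 CPM in the NCI-H520 DMSO libraries.

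RocA clamps the helicase eIF4A onto polypurine stretches of RNA, which blocks scanning ribosomes in the leader ahead of the start codon. HIF1A is the oxygen-regulated subunit of the hypoxia factor HIF-1, which pairs with ARNT and is destroyed in oxygenated cells after prolyl hydroxylation and recognition by VHL. ETS1 is the founding member of the ETS transcription factors and acts downstream of RAS-MAPK signalling. BIRC2, also called cIAP1, is a ubiquitin ligase that keeps TNF receptor signalling on its survival branch, and ROCK1 is the RhoA-activated kinase that drives actomyosin contraction.

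The 4 genes were identified from several coding lengths each. HIF1A (chr14:61695513-61748259, plus strand, GRCh38) had 5 of 5 distinct lengths matched and was read from an entry of 817 codons, that of its 826-residue protein. ETS1 (chr11:128458761-128587558, minus strand) had 6 of 6 matched and an entry of 432 codons, from the 441-residue protein. BIRC2 (chr11:102347211-102378670, plus strand) had 8 of 9 matched and an entry of 609 codons, from the 618-residue protein. ROCK1 (chr18:20946906-21111851, minus strand) had 3 of 3 matched and an entry of 1345 codons, from the 1354-residue protein. Part of ROCK1 has a near-identical pseudogene copy, ROCK1P1, and no source used here says how such reads were counted.

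The annotated leaders, the 5′ untranslated regions, differed widely. Shown is the longest unbroken purine run of each, since polypurine RNA is what RocA is known to act on. Capitals mark the run, written 5′ to 3′ on the strand of the gene, from GENCODE 29 transcripts on GRCh38.
HIF1A: gccacctGAGGAGAGGctcggag
ETS1: ggcgcGGGGGAAAGAAAGGcagcg
BIRC2: gcttatAGGGAAAGAAGcctgca
ROCK1: cctcagtGAGGGGAAGAcggggga
The windows lie at chr14:61695598-61695620 (HIF1A), chr11:128522128-128522151 (ETS1), chr11:102349370-102349392 (BIRC2) and chr18:21111044-21111067 (ROCK1), each within the leader of the transcript used. Their runs end 191, 138, 468 and 140 bases ahead of the start codon, in the same order.

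ETS1 held the longest run of the 4, with 14 purines in a leader of 310 bases, and 89.8% of the 5450 tested genes with a leader of at least 20 bases had a shorter one. Among leaders within a factor of 1.25 of its length, 15.4% held a run as long or longer. The runs of HIF1A (9 bases in a leader of 265), BIRC2 (11 in 1399) and ROCK1 (10 in 941) were common for leaders of their length: 52.7%, 85.7% and 84.7% of leaders of like length held one as long. The median over the tested genes was a leader of 181 bases and a run of 8. BIRC2 stood apart by its length, with 99.5% of leaders shorter, and by a GC content of 35.7% that only 0.661% of leaders fell below, against a median of 66.7%. Another GENCODE transcript of BIRC2 has the same coding length and fits the entry equally. Its leader was not examined, so the BIRC2 leader values and the sequence shown hold for the transcript used. HIF1A, ETS1 and ROCK1 had a GC content of 68.3%, 63.9% and 68.9%.

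The hexamers GAGAGA and AGAGAG were searched on the transcript strand, overlaps counted. The BIRC2 leader used held 2 matches and those of HIF1A, ETS1 and ROCK1 none. Some match occurred in 13.1% of all leaders and in 65.7% of leaders as long as that of BIRC2. These matches describe letters in the annotated leader. The start sites used in these cells were not measured.

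HIF1A carried the most footprints of the 4 in A375 and in both lung lines. With DMSO it gave 310 and 263 counts in NCI-H1650, 148 and 199 in NCI-H520, 397 and 337 in Hs 936.T, and 1158 and 1966 in A375. Scaled to library size by TMM, its level was 625 ± 12.3 CPM in A375, 444 ± 43.8 in NCI-H1650, 273 ± 24.4 in NCI-H520 and 175 ± 3.81 in Hs 936.T (SD, n = 2 libraries each). No line overlapped another. Every neighbouring pair in that order differed: NCI-H1650 lay below A375 by a log2 difference of -0.46 ± 0.10 (SE; adjusted p = 9.8e-05), NCI-H520 lower still, with NCI-H1650 above it by 0.74 ± 0.12 (adjusted p = 1.2e-06), and NCI-H520 above Hs 936.T by 0.65 ± 0.12 (adjusted p = 8.7e-06), all by edgeR's quasi-likelihood test with Benjamini-Hochberg adjustment over 7020 genes.

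Differences between these lines were the rule: 91.4% of the 7020 genes varied over the 4 lines with DMSO by that test (adjusted p under 0.05), so the calls for HIF1A (adjusted p = 1.3e-20), ETS1 (1.5e-18), BIRC2 (1.8e-07) and ROCK1 (5.6e-06) do not set the genes apart. By pair of lines the share of genes called was 59.0% for NCI-H1650 against NCI-H520, 69.7% for NCI-H1650 against Hs 936.T, 63.3% for NCI-H1650 against A375, 60.0% for NCI-H520 against Hs 936.T, 55.4% for NCI-H520 against A375 and 64.2% for Hs 936.T against A375.

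ETS1 ranked the lines differently, with its highest level in Hs 936.T, where HIF1A was lowest. Its counts with DMSO were 869 and 724 in Hs 936.T, 346 and 446 in A375, 34 and 58 in NCI-H1650, and 8 and 15 in NCI-H520. The levels were 380 ± 13.3, 164 ± 28.6, 71.6 ± 27.6 and 17.9 ± 5.70 CPM in that order (SD, n = 2), again without overlap. The range was wide: NCI-H520 lay below Hs 936.T by a log2 difference of -4.37 ± 0.23 (edgeR, adjusted p = 1.4e-17). Neighbours in the order also differed, Hs 936.T over A375 by 1.22 ± 0.12 (adjusted p = 5.6e-11), NCI-H1650 below A375 by -1.14 ± 0.19 (adjusted p = 3.1e-06) and NCI-H1650 over NCI-H520 by 2.01 ± 0.35 (adjusted p = 7.6e-06). Over the 6 melanocyte genes, the median level in the NCI-H520 DMSO libraries was 3.30% and 7.51% of that in Hs 936.T, and ETS1 there was at 3.64% and 5.76% of its Hs 936.T level. The part of those genes' source in the ETS1 level was not tested. HIF1A, by contrast, stood in NCI-H520 at 146% and 166% of its Hs 936.T level.

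BIRC2 was the lowest of the 4 by CPM in NCI-H1650 and Hs 936.T. It gave 105 and 182 counts with DMSO in A375, 40 and 13 in NCI-H1650, 12 and 22 in NCI-H520, and 38 and 34 in Hs 936.T. Its level was 57.3 ± 1.97 CPM in A375, 40.9 ± 28.9 in NCI-H1650, 26.4 ± 8.03 in NCI-H520 and 17.2 ± 0.266 in Hs 936.T (SD, n = 2). The NCI-H1650 replicates, at 61.3 and 20.4 CPM, spanned the libraries of NCI-H520 and of A375. Neighbours in the order did not pass edgeR's test: NCI-H1650 differed from A375 by -0.45 ± 0.26 on the log2 scale (adjusted p = 0.14), from NCI-H520 by 0.65 ± 0.37 (adjusted p = 0.13) and NCI-H520 from Hs 936.T by 0.65 ± 0.37 (adjusted p = 0.13). Leaving out 1 NCI-H1650 library changed this, since NCI-H1650 lay below A375 by a log2 difference of -1.43 without DMSO replicate 1 (edgeR, adjusted p = 0.0013) and above NCI-H520 by 1.23 without DMSO replicate 2 (adjusted p = 0.0035). The ends of the order did differ, with Hs 936.T below A375 by a log2 difference of -1.75 ± 0.23 (edgeR, adjusted p = 3.5e-08). The call of NCI-H1650 over Hs 936.T (1.30 ± 0.32, adjusted p = 0.0007) was lost without NCI-H1650 DMSO replicate 1 (0.31, adjusted p = 0.57).

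ROCK1 was the only one of the 4 with its highest level in a lung line and its next highest in the other. Its counts with DMSO were 44 and 54 in NCI-H520, 54 and 39 in NCI-H1650, 106 and 125 in A375, and 78 and 69 in Hs 936.T. The levels were 77.5 ± 1.93, 72.0 ± 15.2, 48.4 ± 11.4 and 35.1 ± 0.261 CPM (SD, n = 2), and the 2 lung lines overlapped. NCI-H1650 against NCI-H520 differed by -0.06 ± 0.23 on the log2 scale (edgeR, adjusted p = 0.83). Both lung lines lay above both melanoma lines by that test, by 0.65 to 1.15 (adjusted p from 1.8e-05 to 0.0060). Leaving out 1 library ended the call against A375, with 0.46 (adjusted p = 0.079) for NCI-H520 without A375 DMSO replicate 2, and with 0.40 (adjusted p = 0.12) and 0.44 (adjusted p = 0.20) for NCI-H1650 without that library or without its own DMSO replicate 1. Hs 936.T lay below A375 by a log2 difference of -0.43 ± 0.18 (adjusted p = 0.036), a call that DESeq2 did not make (adjusted p = 0.17) and that was lost without either Hs 936.T DMSO replicate (0.12 and 0.11) or without A375 DMSO replicate 1 (0.38).

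Per length, the coding sequences compare as levels in CPM per kilocodon (1000 codons). With DMSO, HIF1A reached 766 in A375 against 380 for ETS1, 94.1 for BIRC2 and 36.0 for ROCK1. In Hs 936.T ETS1 led with 880, against 214 for HIF1A, 28.3 for BIRC2 and 26.1 for ROCK1. In NCI-H520 ETS1 was the lowest, at 41.4 against 334 for HIF1A, 57.6 for ROCK1 and 43.4 for BIRC2. In NCI-H1650 the levels were 544 for HIF1A, 166 for ETS1, 67.1 for BIRC2 and 53.5 for ROCK1.

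**Figure D1:**
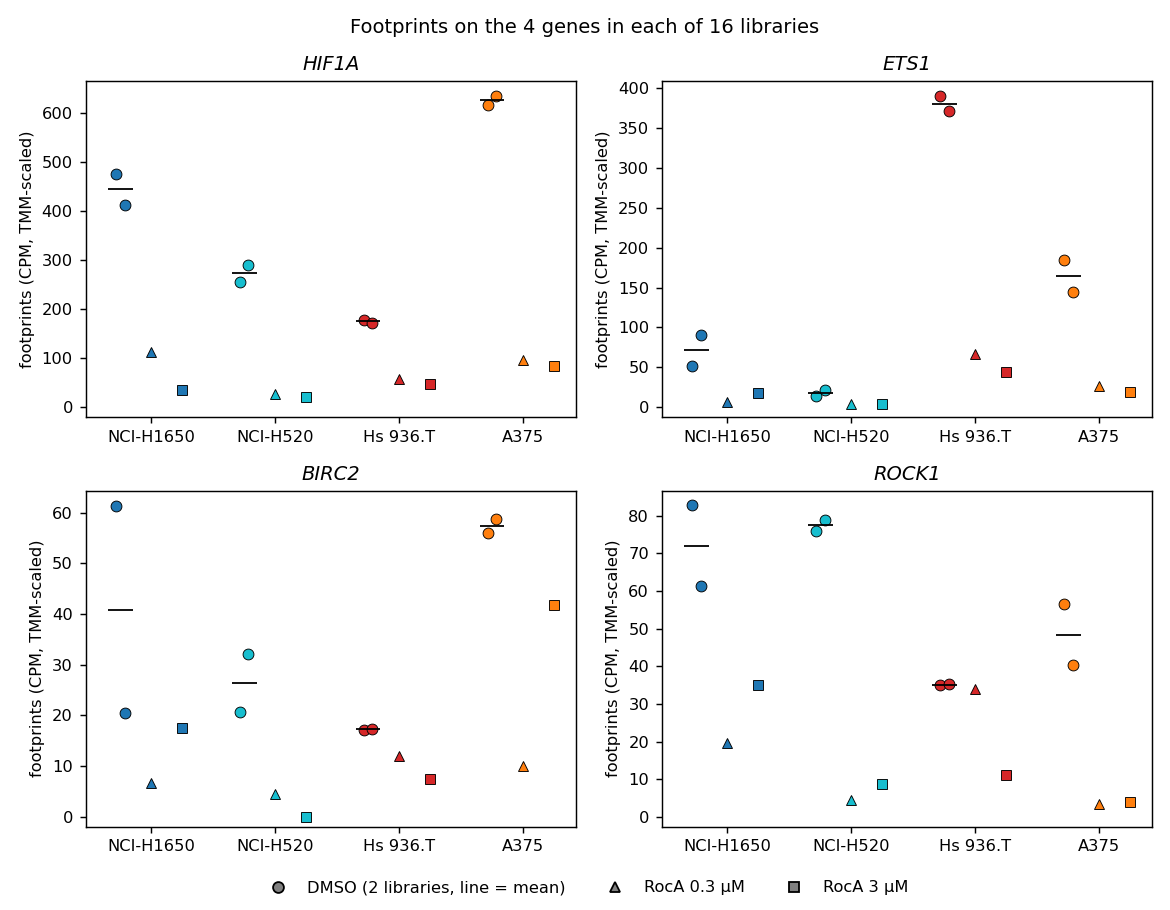
Footprint level of each gene (CPM, scaled by TMM; linear axes that differ between panels) in all 16 libraries, by cell line. Circles are DMSO libraries with a line at their mean, triangles RocA 0.3 µM and squares RocA 3 µM; in every panel each treated library lies below both DMSO libraries of its line, by the least for ROCK1 in Hs 936.T at 0.3 µM (34.0 against 35.0 and 35.3 CPM).

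With RocA, HIF1A footprints were few in every line. At 0.3 µM NCI-H1650 gave 17 counts, NCI-H520 gave 6, and Hs 936.T and A375 gave 29 each, and at 3 µM the counts were 2, 5, 13 and 22. In CPM these are 112, 27.4, 58.1 and 96.9 at 0.3 µM and 35.0, 21.9, 48.0 and 83.4 at 3 µM. All 8 treated values lay below the lowest DMSO value in any line, 173 CPM in Hs 936.T. Over the 4 lines the log2 change was -2.29 ± 0.18 at 0.3 µM and -2.81 ± 0.22 at 3 µM (SE, edgeR), where the median over the 5773 tested genes was -0.22 and -0.29. At 0.3 µM 2.68% of the tested genes lay at or below HIF1A, and at 3 µM 1.78%.

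The share of HIF1A footprints that remained ranged from 9.96% to 33.1% over the lines at the lower dose. At 0.3 µM Hs 936.T kept 33.1% of its DMSO level (95% exact counting interval 22.0 to 48.0%) and NCI-H1650 25.1% (14.5 to 40.6%). A375 kept 15.4% (10.3 to 22.2%) and NCI-H520 9.96% (3.63 to 21.9%). At 3 µM the shares were 27.4% (14.5 to 47.1%) in Hs 936.T, 13.3% (8.32 to 20.2%) in A375, 7.96% (2.57 to 18.8%) in NCI-H520 and 7.87% (0.951 to 28.6%, 2 counts) in NCI-H1650. The line with the lowest HIF1A level with DMSO kept the largest share at both doses. These intervals, here and later, cover counting error only. Tested as a difference of response between lines, shared by both doses, HIF1A did not pass (edgeR, adjusted p = 0.067), but it did with DESeq2 (adjusted p = 0.042) and when the entry with the most codons was used (0.029). On simulated counts, edgeR's test of this kind recovered only 7.6% of 2-fold and 68.8% of 4-fold differences placed in a single line. A gene that does not pass it, here and later, may still differ between lines.

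ETS1 was reduced by a like share in both melanoma lines. Its treated counts were 33 in Hs 936.T and 8 in A375 at 0.3 µM (66.1 and 26.7 CPM), and 12 and 5 at 3 µM (44.3 and 19.0 CPM). Hs 936.T kept 17.4% (95% interval 11.9 to 24.5%) and A375 16.8% (7.23 to 33.3%) at 0.3 µM, and 11.7% (6.01 to 20.4%) and 11.9% (3.86 to 27.9%) at 3 µM. The lung lines had 1 count each at each dose. In NCI-H1650 the DMSO level was 10.9 times that at 0.3 µM (1.90 to 434) and 4.08 times that at 3 µM (0.714 to 163), and in NCI-H520 3.99 times (0.648 to 165) and 4.17 times (0.676 to 172), so a fall was not detectable at this depth in NCI-H520, nor in NCI-H1650 at 3 µM. The melanocyte genes in NCI-H520 were also lower with RocA: their median stood at 0.798% and 1.68% of that in Hs 936.T with DMSO, and their sum at 260 and 599 CPM, beside 1.20% and 1.15% for ETS1. Their part in the ETS1 values of that line was not tested.

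Across the lines the log2 change of ETS1 was -2.56 ± 0.22 at 0.3 µM and -3.01 ± 0.28 at 3 µM (SE, edgeR). These are the lowest estimates of the 4 genes, but the order was not stable: at 3 µM HIF1A was lower with the entry of most codons (-3.09 against -2.93) and without Hs 936.T (-3.13 against -2.85), and at 0.3 µM ROCK1 was lower without Hs 936.T (-3.04 against -2.65). Of the tested genes, 1.42% and 1.25% lay at or below it. The difference of response between lines did not pass (edgeR, adjusted p = 0.98), and the lung lines differed from the melanoma lines by 0.31 ± 0.92 on the log2 scale (adjusted p = 0.97), an error that leaves differences of several fold undetected.

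BIRC2 rested on few counts with RocA. At 0.3 µM NCI-H1650 and NCI-H520 gave 1 count each, Hs 936.T gave 6 and A375 gave 3, and at 3 µM the counts were 1, 0, 2 and 11 in the same order. At 0.3 µM the levels were 6.57, 4.56, 12.01 and 10.02 CPM, each below both DMSO libraries of its line. At 3 µM they were 17.5, 0, 7.39 and 41.7 CPM, also below. Its log2 change was -1.76 ± 0.45 at 0.3 µM and -1.01 ± 0.45 at 3 µM (SE, edgeR), and 8.05% and 26% of the tested genes lay at or below it. BIRC2 was the only one of the 4 whose estimate was closer to 0 at the higher dose, by 0.76 ± 0.71 on the log2 scale, which is about its error. This rested on A375 at 3 µM: without that library the change at 3 µM was -2.10 and the difference between the doses turned to -0.33. Without Hs 936.T at 0.3 µM the change at that dose was -2.52.

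Within lines, A375 kept 17.4% of its BIRC2 footprints at 0.3 µM (95% interval 3.56 to 51.3%) and 72.3% at 3 µM (35.7 to 131%). Hs 936.T kept 69.8% (24.8 to 160%) and 43.0% (5.10 to 161%), intervals that include no change. In NCI-H520 the 0 counts at 3 µM make BIRC2 at least 2.05-fold lower than with DMSO from a floor of 3 counts in that library, while the wider 95% interval used for the other values reaches 63.3% of the DMSO level, or 1.58-fold lower. In NCI-H1650 the DMSO level was 6.26 times that at 0.3 µM (1.08 to 252) and 2.35 times that at 3 µM (0.404 to 94.6), and in NCI-H520 it was 5.90 times that at 0.3 µM (0.990 to 240). Only the first of these 3 intervals lies above 1. The lung lines showed a log2 change lower than that of the melanoma lines by -1.81 ± 0.92, which did not pass (edgeR, adjusted p = 0.41; for any difference between lines, 0.57).

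ROCK1 was the one gene of the 4 to pass edgeR's test of a difference in response between lines. That test uses treated libraries that were in view when the genes were chosen, so its p-value is descriptive. At 0.3 µM NCI-H1650 gave 3 counts, NCI-H520 and A375 gave 1 each and Hs 936.T gave 17, and at 3 µM NCI-H1650 and NCI-H520 gave 2 each, Hs 936.T 3 and A375 1. In the order NCI-H1650, NCI-H520, Hs 936.T and A375, the levels were 19.7, 4.56, 34.0 and 3.34 CPM at 0.3 µM and 35.0, 8.74, 11.1 and 3.79 CPM at 3 µM. Hs 936.T stood apart at 0.3 µM, where it kept 96.9% of its DMSO level (95% interval 55.0 to 161%), against 27.3% in NCI-H1650 (5.53 to 82.3%), 7.20% in A375 (0.182 to 40.5%) and 5.88% in NCI-H520 (0.147 to 33.5%). At 3 µM Hs 936.T kept 31.6% (6.43 to 94.1%), NCI-H1650 48.5% (5.79 to 180%), NCI-H520 11.3% (1.35 to 41.8%) and A375 8.17% (0.206 to 46.0%).

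The difference between lines in the ROCK1 response passed edgeR's quasi-likelihood test with Benjamini-Hochberg adjustment (adjusted p = 0.0216), as it did for 3.24% of the 5773 genes. It rested on single libraries: the adjusted p was 0.59 without Hs 936.T at 0.3 µM, 0.13 without NCI-H520 at 0.3 µM and 0.081 without A375 at 0.3 µM. The difference of the lung from the melanoma lines was not called (-0.50 ± 0.84 on the log2 scale, edgeR adjusted p = 0.89), a contrast that called 1.07% of genes. For HIF1A that contrast was -0.66 ± 0.32 (adjusted p = 0.38).

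Over all lines the log2 change of ROCK1 was -1.44 ± 0.38 at 0.3 µM and -2.41 ± 0.53 at 3 µM (SE, edgeR), and 13.3% and 3.33% of the tested genes lay at or below it. Taken line by line, with the prior count of 2, the median change at 0.3 µM was -2.44. Without Hs 936.T the change at 0.3 µM was -3.04, so that the order of the doses turned, from -0.97 ± 0.77 for 3 µM against 0.3 µM to 0.30. For HIF1A and ETS1 the change at 3 µM went beyond that at 0.3 µM by -0.52 ± 0.32 and -0.45 ± 0.43, differences near their errors.

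**Figure D2:**
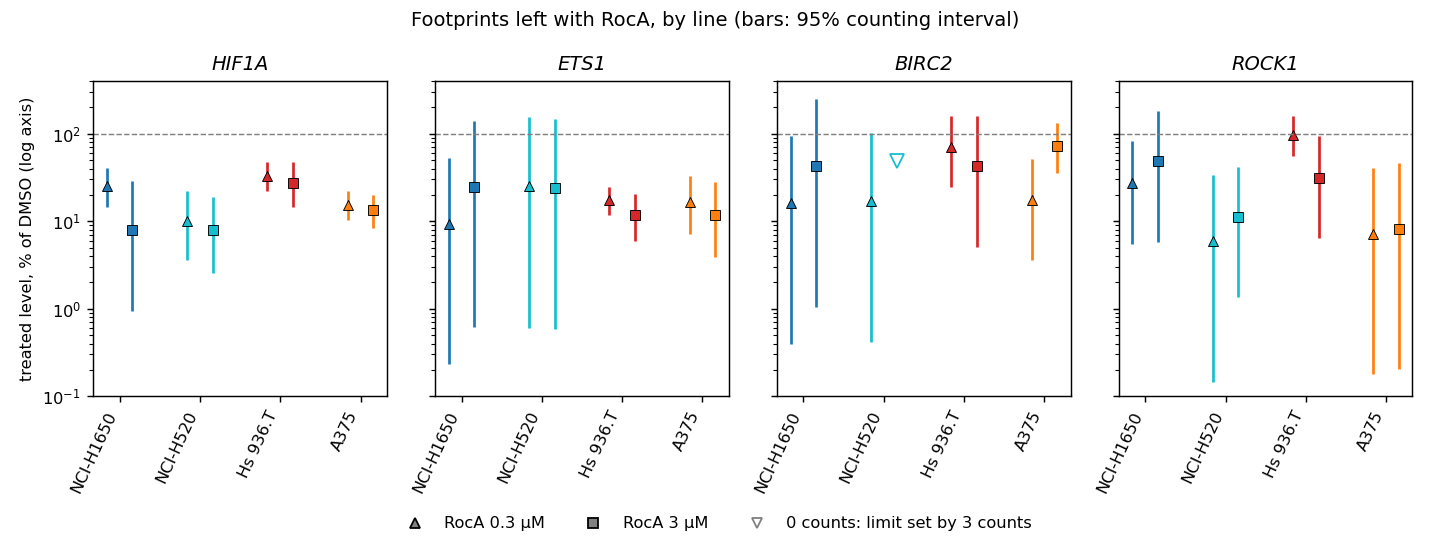
Footprint level with RocA as a percentage of the DMSO level of the same line (log axis), with bars for the 95% exact counting interval; triangles are 0.3 µM, squares 3 µM, the open triangle the limit set by 3 counts where 0 were counted, and the dashed line no change. HIF1A intervals lie below 50% throughout. Intervals reach the dashed line for ETS1 in NCI-H520 at both doses and in NCI-H1650 at 3 µM, for BIRC2 in Hs 936.T at both doses, in NCI-H520 at 0.3 µM and in A375 and NCI-H1650 at 3 µM, and for ROCK1 in Hs 936.T at 0.3 µM (96.9%) and in NCI-H1650 at 3 µM.

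Each of the 4 genes had 8 of 8 treated libraries below both DMSO libraries of its line. The genes were chosen with such values in view, and the share of all tested genes with this pattern was not counted. The shares that follow are of calls, a different measure. Of all tested genes, 60.2% were called at 0.3 µM (22.7% higher, 37.4% lower) and 58.0% at 3 µM (21.0% higher, 37.0% lower) by edgeR at an adjusted p under 0.05. Summed over the lines, 81 counts on HIF1A at 0.3 µM stood against 4778 in the 8 DMSO libraries, 43 against 2500 on ETS1, 11 against 446 on BIRC2 and 22 against 569 on ROCK1, before scaling for depth. At 3 µM the sums were 42, 19, 14 and 8.

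**Figure D3:**
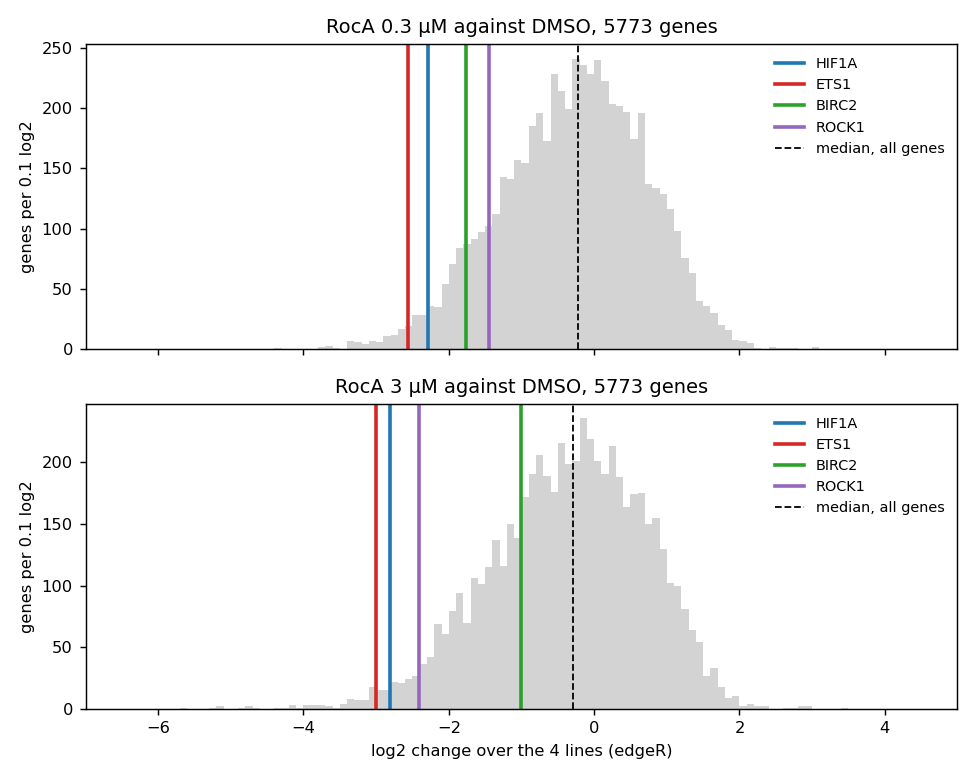
Number of tested genes per 0.1 log2 of change with RocA against DMSO over the 4 lines (edgeR), at 0.3 µM above and 3 µM below, with coloured lines at the 4 genes and a dashed line at the median of all 5773 genes. ETS1 and HIF1A sit in the lower tail in both panels (-2.56 and -2.29, then -3.01 and -2.81), and BIRC2 lies nearer the median at 3 µM (-1.01).

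The partners of each gene moved in both directions. Over all tested genes, 22.7% rose and 37.4% fell at 0.3 µM, and 21.0% rose and 37.0% fell at 3 µM. The list of regulators and partners of HIF-1 held 20 symbols, among them older names of ELOB and ELOC, and 7 genes were tested. At each dose 3 rose and 3 fell. The median log2 change was -0.03 at 0.3 µM and -0.39 at 3 µM, against -0.22 and -0.29 over all tested genes. ARNT, the subunit that HIF1A pairs with, rose by 1.68 ± 0.15 on the log2 scale at 0.3 µM (edgeR, adjusted p = 7.6e-13) and by 1.19 ± 0.19 at 3 µM (adjusted p = 6.3e-07), there in 3 of 4 lines. At the lower and then the higher dose, ELOB, of the VHL ubiquitin ligase, rose by 0.89 and 0.90, and the chaperone HSP90AA1 by 0.71 and 0.64. The coactivators EP300 (-1.22 and -1.16) and CREBBP (-0.81 and -1.53) fell, as did CUL2, the scaffold of the VHL ligase (-0.56 and -1.20). At equal depth within each line, reached by thinning, 6 of these genes were still tested, and at 0.3 µM 3 rose and 1 fell. Of all 4341 genes tested at equal depth, 1092 rose and 1341 fell at that dose.

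HIF-1 target genes showed no common direction. Of 28 listed, 15 were tested: 4 rose and 3 fell at 0.3 µM, and 4 rose and 4 fell at 3 µM, with medians of 0.18 and -0.43. Beside them, 22.7% of all tested genes rose and 37.4% fell at 0.3 µM, and 21.0% rose and 37.0% fell at 3 µM. LDHA, which makes lactate from pyruvate, rose by 1.64 ± 0.08 and 1.43 ± 0.08 (edgeR, adjusted p = 1.1e-21 and 3.3e-19). PDK1, the brake on pyruvate dehydrogenase, rose by 1.22 and hexokinase HK1 by 0.90 at 0.3 µM, and the glycolytic enzyme TPI1 by 0.86 at 3 µM. The vasodilator peptide ADM (-1.47 and -0.95) and the demethylase KDM3A (-0.42 and -1.38) fell, and PFKFB3, which makes the activator of phosphofructokinase, fell by 0.89 on the log2 scale at 3 µM. VEGFA, named here after its values were seen, was at -0.51 ± 0.37 and -0.63 ± 0.43 and was not called (adjusted p = 0.24 and 0.21). Without NCI-H1650, 7 of 16 targets rose and 1 fell at 0.3 µM, where 1358 of all 5654 tested genes rose and 1830 fell. At 3 µM 2 of 15 targets rose and 6 fell without Hs 936.T, and 2 of 16 rose and 3 fell without A375. Of all tested genes at 3 µM, 1098 of 5476 rose and 1800 fell without Hs 936.T. Without A375 991 of 5814 rose and 1849 fell. The median at 0.3 µM turned to -0.11 without Hs 936.T.

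Among the relatives of ETS1, 9 of 22 listed ETS-family genes were tested, and 1 rose and 5 fell at each dose (medians -0.65 and -0.84). At equal depth, with libraries thinned within each line, 7 were tested and 3 fell at each dose. With all 9 tested, 3 fell at 0.3 µM without A375 and at 3 µM without Hs 936.T. At equal depth 1341 of all 4341 tested genes fell at 0.3 µM and 1430 at 3 µM. Without A375 1895 of 5814 fell at 0.3 µM, and without Hs 936.T 1800 of 5476 fell at 3 µM. In the main run 22.7% of all tested genes rose and 37.4% fell at 0.3 µM, and 21.0% rose and 37.0% fell at 3 µM. ELF1 fell most, with log2 changes of -1.91 ± 0.24 and -2.04 ± 0.30 (edgeR, adjusted p = 4.7e-09 and 1.8e-07), followed by ETV5 (-1.63 and -1.86) and ETV1 (-1.43 and -1.42), all 3 in 4 of 4 lines. ELF2 rose by 0.91 and 0.73. ETS2, the closest relative of ETS1 and named after its values were seen, fell, with log2 changes of -0.65 ± 0.23 and -0.72 ± 0.29 (adjusted p = 0.013 and 0.030).

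Around BIRC2, 16 of 34 listed genes of the IAP, TNF receptor and caspase pathways were tested: 2 rose and 7 fell at 0.3 µM, and 3 rose and 4 fell at 3 µM (medians -0.59 and -0.37). At equal depth only 9 of them were tested: 2 rose and 2 fell at 0.3 µM, and 3 rose and 1 fell at 3 µM, where the median turned to 0.27. Of all 4341 genes tested at equal depth, 1092 rose and 1341 fell at 0.3 µM, and 1136 rose and 1430 fell at 3 µM. Without thinning, 22.7% of all tested genes rose and 37.4% fell at 0.3 µM, and 21.0% rose and 37.0% fell at 3 µM. TRAF2, the adaptor that brings BIRC2 to TNF receptors, rose by 1.13 ± 0.20 and 0.79 ± 0.24 (edgeR, adjusted p = 4.2e-06 and 0.0046), and the mitotic IAP family member BIRC5 by 0.67 and 1.09. The initiator caspase CASP9 rose by 1.12 at 3 µM. TAB2, which links ubiquitin chains to the kinase TAK1, fell, with a log2 change of -2.82 ± 0.55 at 0.3 µM (4 treated counts), and so did the caspase-8 regulator CFLAR (-2.60 ± 0.56, 4 treated counts). APAF1, the core of the apoptosome, had 6 counts at 0.3 µM and 1 at 3 µM, against 347 with DMSO, and fell, with a log2 change of -2.52 ± 0.48 at 0.3 µM. The receptor TNFRSF1A fell, with a log2 change of -1.32 ± 0.27 at 3 µM. BIRC3, XIAP and EPAS1 were not analysed here, since the naming did not place them.

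Of 17 listed BCL2-family genes, 6 were tested: none rose and 2 fell at 0.3 µM, and 2 rose and 1 fell at 3 µM (medians 0.01 and -0.03). These small counts turned on single lines: at 0.3 µM 2 rose and 1 fell of 6 without Hs 936.T, and 1 rose and 1 fell both of 5 at equal depth and of 9 without A375. Also at 0.3 µM 1 rose and 2 fell of 7 without NCI-H1650 and of 8 without NCI-H520. At 3 µM 1 rose of 8 without NCI-H520, and none fell of 5 at equal depth. Of all tested genes at 0.3 µM, 1197 of 5476 rose and 1915 fell without Hs 936.T. At equal depth 1092 of 4341 rose and 1341 fell, and without A375 1113 of 5814 rose and 1895 fell. Without NCI-H1650 1358 of 5654 rose and 1830 fell, and without NCI-H520 1236 of 5907 rose and 2096 fell. At 3 µM 1037 of 5907 rose without NCI-H520, and 1430 of 4341 fell at equal depth. In the main run, 22.7% of all tested genes rose and 37.4% fell at 0.3 µM, and 21.0% rose and 37.0% fell at 3 µM. BCL2L1, which codes for the survival protein BCL-XL, fell, with log2 changes of -1.72 ± 0.33 and -2.13 ± 0.40 (edgeR, adjusted p = 2e-05 and 1.6e-05). The death agonist BID fell, with a log2 change of -0.60 at 0.3 µM, and BCL2L12 rose by 0.69 at 3 µM.

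The RhoA-ROCK pathway was the most fully measured of the lists, with 29 of 40 genes tested, of which 2 rose and 16 fell at 0.3 µM and 2 rose and 14 fell at 3 µM (medians -0.56 and -0.41). At equal depth 23 were tested, of which 1 rose and 9 fell at 3 µM, and with median-ratio scaling in place of TMM 4 of 29 rose at 0.3 µM. Of all tested genes, 1136 of 4341 rose and 1430 fell at 3 µM at equal depth. With median-ratio scaling 1436 of 5883 rose at 0.3 µM. In the main run, 22.7% of all tested genes rose and 37.4% fell at 0.3 µM. At 3 µM 21.0% rose and 37.0% fell. ROCK2, the paralogue of ROCK1, fell, with log2 changes of -1.80 ± 0.26 and -1.24 ± 0.26 (edgeR, adjusted p = 1.8e-07 and 0.00013). The RhoA exchange factor ECT2 fell, with log2 changes of -1.90 and -1.92, and so did the actin-severing protein CFL2 (-1.76 at 0.3 µM), while its homologue CFL1 rose by 0.74 and 0.97. At 3 µM the GTPase-activating protein ARHGAP5 (-1.99) fell. RHOA itself, named after its values were seen, fell, with a log2 change of -0.32 ± 0.10 at 0.3 µM (adjusted p = 0.0056) and was not called at 3 µM (-0.07 ± 0.10, adjusted p = 0.59).

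Other proto-oncogenes fell or were not called: of 35 listed and 17 tested, 12 fell at 0.3 µM and 13 at 3 µM, and none rose (medians -0.88 and -1.15). The phosphatase CDC25A fell, with log2 changes of -2.19 ± 0.29 and -3.74 ± 0.44 (edgeR, adjusted p = 1.8e-08 and 1.1e-09; 16 and 4 treated counts). NOTCH2 (-1.52) and MYC (-1.40) were among the lowest at 0.3 µM by the rule for named genes, as was the Hippo effector YAP1 (-2.10) at 3 µM. At equal depth 12 of these genes were tested, of which 8 fell at 3 µM and none rose. Of all 4341 genes tested at equal depth, 1136 rose and 1430 fell at 3 µM. Without thinning, 22.7% of all tested genes rose and 37.4% fell at 0.3 µM, and 21.0% rose and 37.0% fell at 3 µM. These lists were assembled with earlier results of these data known, so their counts are a description, and no list was tested against the other genes.

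**Figure D4:**
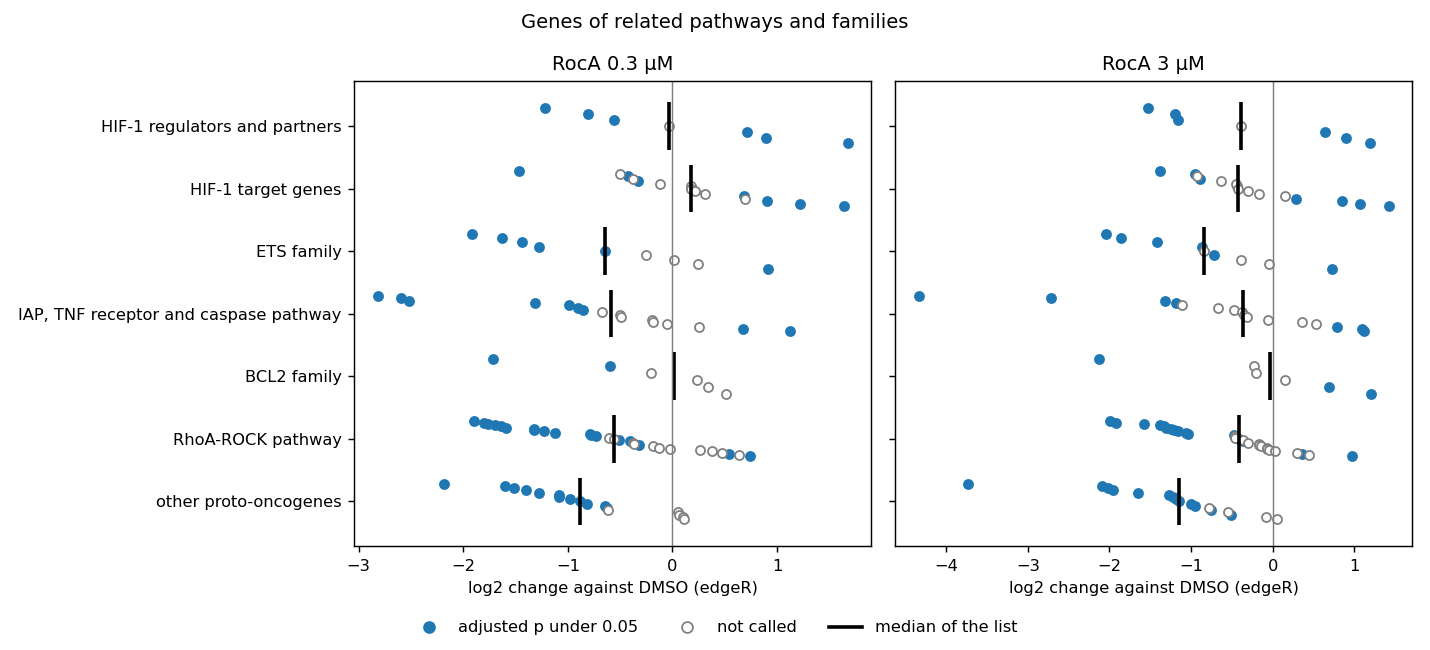
Log2 change with RocA against DMSO (edgeR) of each tested gene of the 7 lists, at 0.3 µM on the left and 3 µM on the right (the axes differ); filled points passed an adjusted p under 0.05 and vertical bars mark each list's median. The proto-oncogenes have no filled point above 0, while the HIF-1 lists spread to both sides.

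The genes whose levels ran most like each member over the 12 combinations of line and dose were found by the correlation of log2 CPM over 6052 genes with at least 10 CPM on average, as a description. For HIF1A these were LYPLA2 (Pearson r = 0.95), ANTXR2 (0.93) and NUP214 (0.92). For ETS1 they were GPD2, RAB5C and PRKAR1A, each at 0.94. BIRC2 ran most like TYK2 (0.93), PRKAR2A (0.91) and SLC39A1 (0.89), and ROCK1 like NCOA1 and RAB5A, each at 0.92. The points share libraries and depth, and ANTXR2 and NCOA1 averaged only 10.3 and 10.6 CPM.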

How the data were processed

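Ribosome footprints were deposited for 16 libraries of 4 cell lines. Per the submitters' processing notes, the tools named are CASAVA 1.8, Bowtie2 2.1.0 and TopHat2 2.0.9 and the build hg38. The deposited tables give, for 182398 transcripts, the number of codons and the footprints that the authors counted on them, as raw counts without normalization. The sources used here do not give the transcript annotation. Transcripts without codons (88482) held 0 counts. Reads are repeated over the transcripts of a gene.

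Genes were named by matching coding lengths to the 19969 coding genes of GENCODE 29 (minimum score 14, natural log; minimum odds 100). This matched 9406, of which 61 were dropped for shared entries. Decoys with altered lengths matched in 32 cases (0.34%), and 0 named genes lay off the chromosome of both neighbours, against 89.5% after shuffling. On simulated data, 2 of 5529 named genes were misplaced.

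The tests ran in R 4.3.3 under edgeR 4.0.16 (TMM, filterByExpr with minimum count 10, robust quasi-likelihood test, 2-sided, a call being a Benjamini-Hochberg adjusted p under 0.05), with terms for line and dose; limma 3.58.1 and DESeq2 1.42.0 (an alternative); and Python 3.11.15 with NumPy 2.4.6, pandas 2.3.3 and matplotlib 3.10.9. The response of each line was 1 term shared by both doses, with a common term for 3 against 0.3 µM. The 8 DMSO libraries alone served to compare the lines. The tests across genes were tried on simulated counts. The tests of RocA against DMSO recovered 60% of 2-fold changes at 0.3 µM and 56.7% at 3 µM. Of 4-fold changes they recovered 100% and 96.8%. The test of a response difference recovered 7.6% of 2-fold and 68.8% of 4-fold differences placed in a single line, so it misses most small differences. Alternatives were other scaling, no filter, the entry with the most codons, thinning to equal depth, and leaving out libraries or lines. Recounting the lists under them was added after seeing the data.

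The 4 genes and the lists were chosen with earlier results of these data known. Named list genes were, per list and dose, up to 3 called genes with the largest rise and 3 with the largest fall, at a mean of 10 CPM or more and with 1 sign in all 4 lines. Depth limits precision: between DMSO replicates, chi-square per degree of freedom was 1.51 to 2.37, and log2 counts correlated across genes at 0.962 to 0.988. Counting intervals are exact at 95%. Replicate numbers did not pair the lines. Some genes that these rules select are not reported here.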

Additional observations from a re-analysis of the deposited data

Results flagged for a closer look

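ROCK1 differed between the 4 lines in its response to RocA by edgeR's quasi-likelihood test of that difference (Benjamini-Hochberg adjusted p = 0.0216). The treated libraries were in view when the gene was chosen, so this p-value is descriptive. The line that stood apart was Hs 936.T at 0.3 µM, with 96.9% of its DMSO level against 5.88 to 27.3% in the other 3 lines, on 17 counts against 1 to 3. Without that library the adjusted p was 0.59.

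For BIRC2 at 0.3 µM the log2 change of Hs 936.T (-0.45, from 6 counts) lay far from those of the other 3 lines, which ranged from -2.27 to -2.03 on 1 to 3 counts each, by Dixon's criterion for 4 values. Chance gives such a gap in about 1 of 20 groups, and all 4 genes were screened at both doses. The 95% counting interval of Hs 936.T (24.8 to 160% of its DMSO level) overlaps those of NCI-H1650 (0.397 to 93.0%), NCI-H520 (0.417 to 101%) and A375 (3.56 to 51.3%), and edgeR's test of a difference in response between lines did not pass for BIRC2 (adjusted p = 0.57).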

How the results depend on the processing

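For the 4 genes, no alternative run turned the direction of a change with RocA against DMSO or of a called difference between lines; the named list genes were not compared one by one. List medians did turn. The IAP list at 3 µM went from -0.37 to 0.27 at equal depth, and the HIF-1 targets at 0.3 µM from 0.18 to -0.11 without Hs 936.T. The HIF-1 regulators at 0.3 µM (-0.03) and the BCL2 family at 3 µM (-0.03) turned under several alternatives. The BCL2 family at 0.3 µM (0.01) turned only without NCI-H520 (-0.05). The DMSO differences between lines passed for all 4 genes under every alternative run. The HIF1A difference of response, not called (adjusted p = 0.067), passed with DESeq2 (0.042) and with the entry of most codons (0.029), and the cause was not tested. Genes called between lung and melanoma responses numbered 62, and 41 without the 2 libraries of differing labels, with fewer samples. ROCK1 at 0.3 µM was -3.04 without the line Hs 936.T.

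Leaving out 1 library at a time gave log2 changes at 0.3 µM of -2.58 to -2.07 (HIF1A), -2.66 to -2.42 (ETS1), -2.52 to -1.32 (BIRC2) and -3.04 to -1.05 (ROCK1), and at 3 µM of -3.11 to -2.66, -3.05 to -2.85, -2.10 to -0.67 and -2.69 to -2.13. The adjusted p of the response difference ran from 0.0434 to 0.315 (HIF1A) and 0.0045 to 0.586 (ROCK1). It was under 0.05 for HIF1A without NCI-H520 DMSO replicate 1 (0.045), NCI-H1650 at 0.3 µM (0.0434) or NCI-H1650 at 3 µM (0.0488), and for ROCK1 above it without Hs 936.T (0.586), NCI-H520 (0.134) or A375 (0.081) at 0.3 µM. Counts of called genes ran from 3123 to 3645 at 0.3 µM, 2905 to 3513 at 3 µM, 5972 to 6559 between lines with DMSO, 127 to 273 for response differences and 13 to 152 for lung against melanoma responses (13 without NCI-H1650 at 0.3 µM, 152 without Hs 936.T at 3 µM).

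Median-ratio scaling (edgeR's RLE method) in place of TMM moved the median of all genes to -0.15 and -0.18. Thinned to equal depth, 1092 genes rose and 1341 fell of 4341 at 0.3 µM, and 1136 rose and 1430 fell at 3 µM. A replicate block, tried although the numbers do not pair the lines (r from -0.03 to 0.09), gave 6407 genes differing between lines against 6417 and changed no call of the 4 genes. Depth limits BIRC2 (0 to 11 counts per treated library), ROCK1 (1 to 17, with 1 at each dose in A375) and, in the lung lines, ETS1 (1 per treated library).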
